A study of Mus musculus with 18 samples.

Results

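Bone marrow-derived macrophages (BMDMs) that had received medium conditioned by IL-1β-treated enteric glia (CM-IL-1) were compared with BMDMs kept in RPMI. The comparison takes in the 8 libraries that carry either label, 4 in each group, of 18 in the series. The series asked how enteric glial cells (EGCs), the support cells of the gut's own nervous system, respond to IL-1β and what their secreted products do to macrophages. For the macrophage arm, BMDMs of 3 groups were harvested after 3 h in RPMI, in medium of EGCs that had received vehicle (CM-Veh) or in CM-IL-1. CM-IL-1 was collected from EGCs exposed to IL-1β at 10 ng/ml for 24 h; the labels give the EGC source as the muscle layer of the small bowel and the genotype as Bl6. All BMDMs, the RPMI controls included, were Il1R1-KO, which means that they lack the type 1 IL-1 receptor, and came from adult mice; the labels give no strain for them and do not say whether the 4 libraries of a group came from separate mice or cultures. The question was thus what glial products other than IL-1β itself do to macrophages. The RPMI in which BMDMs were grown contained serum and the macrophage growth factor CSF-1, and the glia had been kept in a serum-free neuronal base medium with supplements and EGF. Base medium and glial products thus differ together between RPMI and CM-IL-1, and their parts cannot be told apart in this comparison. The CM-Veh mean, which comes from the same kind of base medium, is given beside the means of single genes. It was set against the same RPMI libraries, so the 2 sets of ratios are not independent, and the difference between CM-IL-1 and CM-Veh was not tested.

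The deposited macrophage table lists 11200 genes, each with the authors' mean per group, from 3′ messenger RNA libraries. The means of each group summed to nearly the same total (996052 for RPMI, 996561 for CM-Veh and 996786 for CM-IL-1), close to the scale of CPM. Where 3 means stand without group names, they follow the order RPMI, CM-Veh, CM-IL-1. Values per library were not analysed here, and read depth is unknown. No ratio below has an SD, a standard error or a p-value, since only group means were used, and whether a difference exceeds the spread between the 4 libraries of a group was not judged here. A ratio was computed for 7224 genes, those whose mean reached 10 in RPMI or CM-IL-1 (the genes kept). A gene was called higher or lower where the means differed at least 2-fold. One row, AY036118, took 23.5% of the summed means in RPMI, 21.4% in CM-Veh and 23.9% in CM-IL-1.

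Macrophages read their surroundings through surface receptors, and within hours rewrite their output of chemokines, growth factors and enzymes. Many cytokine receptors work through Janus kinases (JAKs), which phosphorylate STAT transcription factors; STATs then induce SOCS proteins and CISH, which block the receptor complex and so end the signal. Nuclear factor kappa B (NF-κB), the AP-1 factors and hypoxia-inducible factor 1 carry other inputs, from danger signals, growth factors and oxygen or metabolism. Arginase 1 and transglutaminase 2 are classic products of mouse macrophages in a repair-type state, whereas IL-1β is a classic inflammatory product.

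With CM-IL-1 the means of the cytokine signalling inhibitor genes Cish, Socs2 and Socs3, of 7 of 9 kept monocyte and lymphocyte chemokines, of 9 of 13 alternative activation markers and of 12 of 31 glucose-use and hypoxia genes were at least 2-fold higher than with RPMI. Arg1, the gene of arginase 1, was 51.7-fold higher. At least 2-fold lower were 8 of 24 kept FOXO or growth factor withdrawal targets, 5 of 16 p53 targets and 6 of 23 cell cycle genes, although 2 members of each of the first 2 lists were higher. In all, 314 of the 7224 genes (4.35%) were at least 2-fold higher and 347 (4.80%) at least 2-fold lower. Large ratios leaned upwards, with 108 genes at least 4-fold higher and 35 at least 4-fold lower, and 47 against 6 at 8-fold. The median log2 ratio of all genes was -0.12, so a typical gene was slightly lower with CM-IL-1, and list medians below are to be read against that shift. When the ratios were centred on this median, 377 genes were higher and 259 lower, and higher genes made up 59.3% of the calls in place of 47.5%. The lean of the lower calls to weak genes was plain: with means of 10 to 20, 68 genes were higher and 143 lower, whereas with means of 200 or more 57 were higher and 10 lower. The CM-Veh mean lay between the other means in 292 of the 314 higher genes and 331 of the 347 lower genes. Both sets were chosen for a gap of at least 2-fold between RPMI and CM-IL-1, which favours a CM-Veh mean inside that gap. The share for all genes kept was not counted, so these counts have no baseline and do not show a graded response. List medians below are for CM-IL-1 over RPMI. For CM-Veh over RPMI the median log2 ratio of all genes was 0.01. It was 0.83 for the monocyte and lymphocyte chemokines, 0.39 for alternative activation and 0.62 for glucose use and hypoxia. For FOXO targets, p53 targets and cell cycle genes it was -0.66, -0.15 and -0.33.

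**Figure D1:**
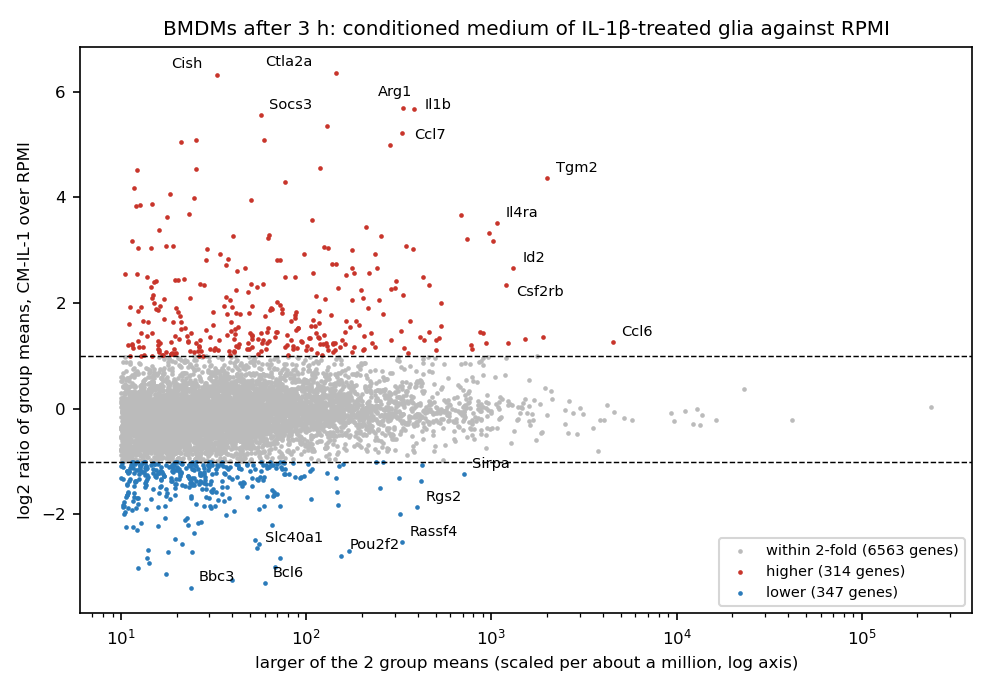
Log2 ratio of the authors' group means (CM-IL-1 over RPMI, vertical axis) against the larger of both means (horizontal log axis) for the 7224 genes kept; each point is 1 gene, and dashed lines mark 2-fold. The 314 higher genes reach a log2 ratio of 6.36, whereas the 347 lower genes reach -3.39.

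The cells carried a macrophage profile in every group. Of 18 macrophage identity genes, all had a row and 17 were kept; 2 were higher, none was lower, and the list median was -0.18. Lyz2, which encodes lysozyme, had authors' means of 16250.4 with RPMI, 16195 with CM-Veh and 13984 with CM-IL-1. The F4/80 gene Adgre1 stood at 435, 369 and 341, and Cd68 at 949, 929 and 861. Csf1r, the receptor for CSF-1, had means of 943, 784 and 728, and Itgam, which encodes CD11b, had 337, 349 and 425. All of these were within 2-fold. The members past 2-fold were Cd14, the lipopolysaccharide co-receptor, at 90.8, 376 and 461, and the high-affinity IgG receptor gene Fcgr1 at 84.2, 164 and 178.

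Few markers of other cells were kept. None of 12 enteric glia markers and none of 8 mast cell and basophil markers had a row. Of 13 neutrophil and granulocyte markers 4 had a row, 3 were kept and none passed 2-fold; S100a8, the most abundant with CM-IL-1, had means of 34.2 with RPMI, 37.04 with CM-Veh and 49.1 with CM-IL-1. Of 13 fibroblast and smooth muscle markers 4 were kept, with log2 ratios from -0.21 to 0.20; Col1a2 stood at 40.3, 30.4 and 34.8. Of 12 B and T cell markers 1 was kept (Il7r), of 10 dendritic cell markers 1 (Irf8), and of 10 erythroid and megakaryocyte markers 1 (Pf4), none past 2-fold. Their means were not low, with Il7r at 282, 384 and 410, Irf8 at 211, 206 and 213, and Pf4 at 890, 1496 and 1772. Of the 16 housekeeping genes 13 were kept and all were within 2-fold, with a median of -0.24. Rplp0, a ribosomal protein gene, had means of 844, 839 and 836, and Gapdh, a glycolytic enzyme gene, 166, 208 and 199.8.

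The deleted gene, Il1r1 (chromosome 1, 40225080 to 40317257, plus strand, GRCm38), was listed with means of 2.88 with RPMI, 8.69 with CM-Veh and 9.57 with CM-IL-1, all below the minimum of 10. Reads of a 3′ library can lie outside the deleted part of a gene, so these values do not check the genotype. Il1rap, which encodes the co-receptor, was also below the minimum in every group, at 1.53, 1.96 and 3.85. Of the 20 genes of the IL-1 receptor axis 10 were kept, and 1 of them, Il1rn, passed 2-fold. Il1rn encodes the IL-1 receptor antagonist, which binds the receptor without activating it. Its means were 95.97, 469 and 967, which was 10.1-fold higher with CM-IL-1 than with RPMI. The adaptor and kinase genes of the pathway stayed within 2-fold, among them Myd88 at 47.3, 58.9 and 58.9 and Irak2 at 35.8, 37.8 and 31.1.

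The JAK-STAT pathway held some of the largest ratios. Of its 28 listed genes 22 were kept, 7 were higher and 2 lower, and 13 were within 2-fold, with a median of 0.19. Cish, which encodes a STAT5-induced inhibitor that binds cytokine receptors, had authors' means of 0.412 with RPMI, 7.44 with CM-Veh and 33.1 with CM-IL-1. The RPMI mean was under 1, so no fold is given. Socs3, whose product blocks the gp130 receptor subunit and JAKs, stood at 1.21, 11.05 and 56.96, a 47.2-fold higher mean. Socs2, an inhibitor best known from growth hormone signalling, stood at 3.14, 31.1 and 129, 41.02-fold higher. The RPMI means of these 3 inhibitors were near or below 3, so that the size of their ratios depends on small values.

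The other members had smaller ratios than Cish, Socs2 and Socs3. Pim1, a serine/threonine kinase gene induced by STATs, had means of 56.6 with RPMI, 135 with CM-Veh and 304 with CM-IL-1 and was 5.37-fold higher. Jak2, the kinase used by many cytokine and growth factor receptors, stood at 14.2, 20.9 and 39.2, a 2.76-fold higher mean. Ptpn2, which encodes a phosphatase that removes phosphate from JAKs and STATs, stood at 10.8, 17.5 and 37.5. Stat3 completed the 7 higher genes with 117, 232 and 287; it was named to complete that count, after its values were seen. Lower means were seen for Pias3, which encodes an inhibitor of STAT3, at 16.6, 11.5 and 7.22, and for Ptpn6, the phosphatase SHP-1, at 239.7, 169 and 119. Ptpn6 lay just past the limit at 2.01-fold, and centred ratios put it inside.

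Genes known as STAT3 targets were mostly on the higher side. Of 21 listed, 20 were kept, 12 were higher and 1 lower, with a median of 1.22 against -0.12 for all genes. For CM-Veh over RPMI the median of this list was already 0.98. Some, such as Socs3, Il1rn and Il4ra, also stand in other lists described here. Nfil3, a leucine zipper repressor gene, had means of 9.81 with RPMI, 30.5 with CM-Veh and 69.3 with CM-IL-1 and was 7.07-fold higher. Cebpb, a factor of inflammatory and reparative macrophages, stood at 41.3, 133 and 197. Ier3, an immediate early gene linked to survival, stood at 53.7, 308 and 686, 12.8-fold higher. The 1 lower member was Bcl6, a transcriptional repressor gene that competes with STATs for some sites. Its means were 59.8, 30.6 and 6.03, 9.91-fold lower with CM-IL-1, the lowest log2 ratio (-3.31) of the 2643 genes whose mean reached 50 in either group.

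Promoters of 3 of these genes are shown because they are STAT feedback or STAT target genes at opposite ends of the comparison and hold the letters of a STAT site. The windows are RefSeq promoters of GRCm38.p6, 300 bases each, from 250 before to 50 after an annotated start of transcription, read 5′ to 3′ on the gene's strand. Capitals mark each match to TTCNNNGAA, which reads the same on both strands. Cish lies on chromosome 9 on the plus strand, and the window is chr9:107296409-107296708, inside the GENCODE span of the gene (107296026 to 107302784). Socs3 lies on chromosome 11 on the minus strand, and the window is chr11:117969317-117969616, also inside the GENCODE span (117966079 to 117970047). Bcl6 lies on chromosome 16 on the minus strand and has 2 windows in RefSeq; the one with more matches, shown here, is chr16:23981234-23981533 and lies at a start inside the gene, which spans 23965052 to 23988852 in GENCODE.
Cish: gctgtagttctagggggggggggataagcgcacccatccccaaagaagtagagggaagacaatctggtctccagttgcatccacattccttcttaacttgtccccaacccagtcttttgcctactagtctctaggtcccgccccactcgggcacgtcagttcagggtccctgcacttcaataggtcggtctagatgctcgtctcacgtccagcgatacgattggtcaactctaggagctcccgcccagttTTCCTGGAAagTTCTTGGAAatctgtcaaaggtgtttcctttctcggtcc
Socs3: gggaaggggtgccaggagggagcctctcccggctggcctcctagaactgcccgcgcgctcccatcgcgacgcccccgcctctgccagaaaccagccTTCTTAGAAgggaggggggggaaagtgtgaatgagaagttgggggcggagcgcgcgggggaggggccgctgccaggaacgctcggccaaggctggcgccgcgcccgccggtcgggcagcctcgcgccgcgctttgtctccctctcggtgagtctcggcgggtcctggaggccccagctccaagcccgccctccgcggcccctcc
Bcl6: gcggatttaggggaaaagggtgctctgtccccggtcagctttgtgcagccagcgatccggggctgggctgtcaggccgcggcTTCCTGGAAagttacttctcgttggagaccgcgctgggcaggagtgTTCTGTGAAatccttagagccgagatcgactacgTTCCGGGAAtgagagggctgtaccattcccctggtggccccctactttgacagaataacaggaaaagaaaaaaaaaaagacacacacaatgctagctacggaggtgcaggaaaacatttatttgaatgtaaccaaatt

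Cish had 2 matches, one at the RefSeq start of transcription and one 11 bases after it. Socs3 had 1 match that began 154 bases before its RefSeq start. Bcl6 had 3 in this window, at 168, 122 and 88 bases before that internal start, and its window at the gene start, chr16:23988803-23989102, held 1. No match overlapped the other motifs searched (ACGTG and GTAAACA). Of all 32851 promoter windows 8.30% held TTCNNNGAA. By gene it was present for 7.93% of the 5626 kept genes with a window, 11.2% of the 242 higher genes with one and 11.6% of the 276 lower genes with one. In the JAK-STAT list 2 of the 17 genes with a window held it, Cish and Socs3. A match of letters is no evidence of binding.

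Receptors for cytokines were divided. Of 27 listed 24 were kept, 6 were higher and 1 lower, and the median was -0.19. Ratios above 1 were seen in 10 of the 24 and below 1 in 14. At 1.5-fold 6 were higher and 6 lower. Il4ra, the signalling chain shared by the IL-4 and IL-13 receptors, had means of 94.1 with RPMI, 505 with CM-Veh and 1072 with CM-IL-1 and was 11.4-fold higher. Csf2rb, the common beta chain of the GM-CSF, IL-3 and IL-5 receptors, stood at 237, 637 and 1195, and its mouse paralog Csf2rb2, named to complete the count, at 59.9, 96.7 and 121. The paralogs are close copies, and reads may have been split between them. Il21r stood at 47.02, 125 and 202, and Il17ra, which encodes an IL-17 receptor subunit, at 25.4, 78.5 and 87.04. Il13ra1 had 5.21, 5.30 and 11.5. Nrp1, a co-receptor for VEGF and semaphorins, was the lower member at 159, 121 and 76.7; it was 2.07-fold lower and inside the limit when centred.

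**Figure D2:**
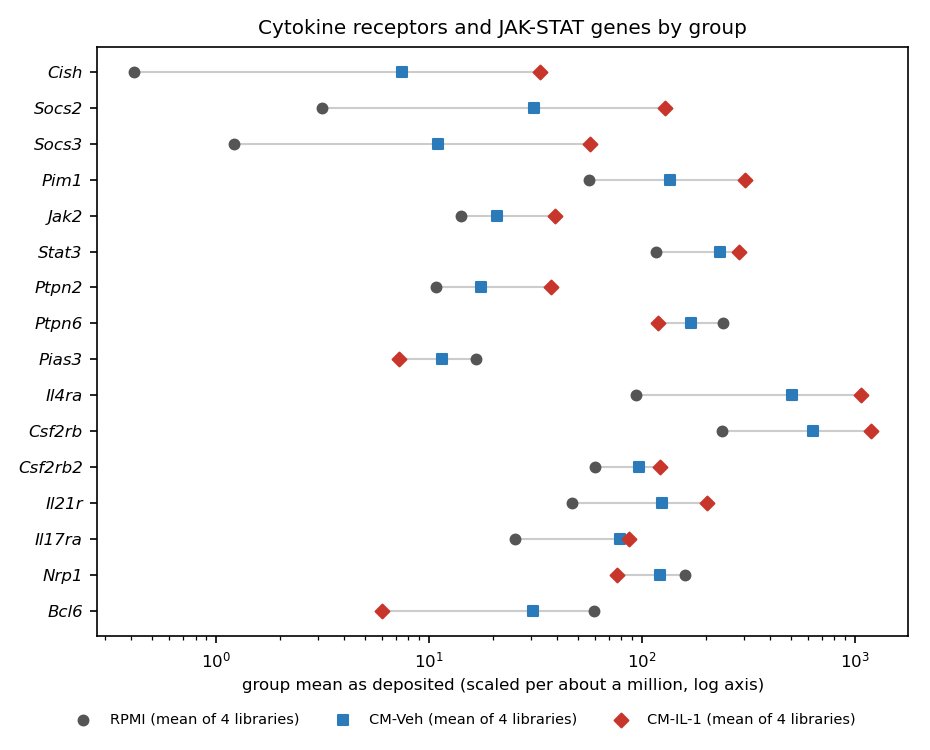
Authors' group means (horizontal log axis, each group scaled to nearly the same total) of 16 receptor and JAK-STAT genes in RPMI, CM-Veh and CM-IL-1; each mark is the mean of 4 libraries and no spread is available. Cish lies at 0.412 in RPMI and 33.1 in CM-IL-1, whereas Bcl6 lies at 59.8 and 6.03, with CM-Veh between in each row.

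Chemokines, the attractants of leukocytes, had higher means. Of 20 listed chemokines for monocytes and lymphocytes 9 were kept and 7 were higher, none lower, with a median of 1.45. Ccl7, a monocyte attractant, had means of 8.76 with RPMI, 154 with CM-Veh and 328 with CM-IL-1, 37.4-fold higher with CM-IL-1. Ccl2, its neighbour on chromosome 11 and a ligand of CCR2, stood at 3.93, 40.95 and 76.8, 19.5-fold higher. Ccl4 had 38.04, 65.8 and 117, and Ccl3 had 35.9, 101 and 106; both attract monocytes and lymphocytes. The macrophage chemokine Ccl6 was already abundant with RPMI, with means of 1890.1, 3252 and 4529, and had the greatest difference of means among genes past 2-fold. Ccl9 stood at 609, 1082 and 1510.3, and Cxcl14 at 25.3, 63.7 and 68.9. Of the 7 neutrophil chemokines listed 3 were kept and 2 were higher. Cxcl2, a ligand of CXCR2, had means of 41.3, 161 and 347, 8.41-fold higher. Ppbp, which encodes a platelet and macrophage chemokine, stood at 4.09, 15.2 and 28.7. Pf4, the platelet factor that macrophages also make, lay at the edge of the limit with 890.4, 1496 and 1772.

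Of 32 other cytokines 12 had a row and 9 were kept. Il1b, which encodes IL-1β itself, had means of 7.50 with RPMI, 67.9 with CM-Veh and 382 with CM-IL-1 and was 50.9-fold higher with CM-IL-1. It lies on chromosome 2 (129364570 to 129371139, minus strand, GRCm38). The second higher cytokine was Osm, oncostatin M of the IL-6 family, at 0.530, 4.92 and 12.2, with an RPMI mean too low for a fold. Il16 was lower, at 19.5, 4.67 and 3.54. Tgfb1, the gene of transforming growth factor beta 1, had 58.7, 76.9 and 104, which was 1.77-fold higher and so within the limit. 

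Growth factors split in both directions. Of 21 listed 14 were kept, 5 were higher and 3 lower, and the median was -0.14. Inhba, the activin A subunit gene, had means of 1.75 with RPMI, 19.2 with CM-Veh and 59.3 with CM-IL-1, 33.9-fold higher. The size of this fold depends on a small RPMI mean. Hbegf, which encodes a ligand of the EGF receptor, stood at 5.08, 33.1 and 119, 23.4-fold higher. Thbs1, thrombospondin 1, a matrix protein that can activate latent TGF-β, had 112, 577 and 1019.6. Vegfa, the angiogenic factor, had 46.5, 239.8 and 379.8, and Pdgfa, a mitogen of mesenchymal cells, 47.5, 107 and 125. The 3 lower genes were Bmp2, a bone morphogenetic protein, at 21.4, 4.85 and 3.65, Gas6, the ligand of the TAM receptors that take up dying cells, at 49.6, 33.7 and 21.8, and Gdf15, a stress-induced factor, at 73.8, 46.2 and 33.6.

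**Figure D3:**
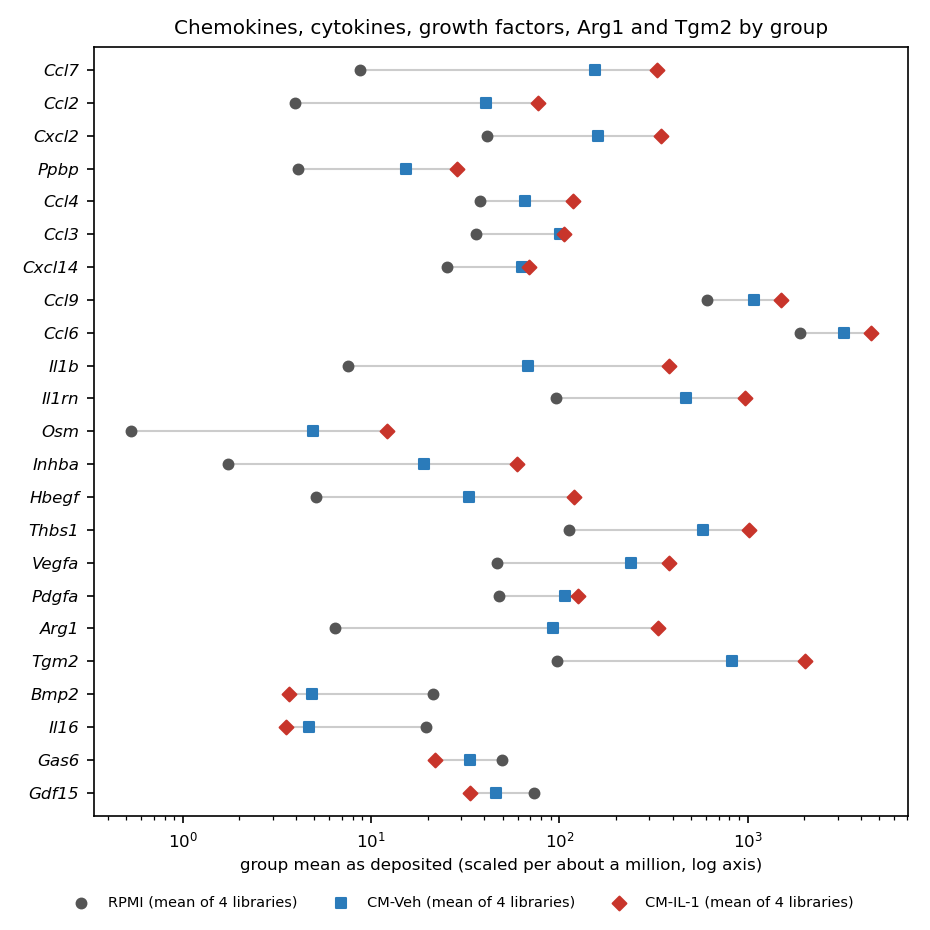
Authors' group means (horizontal log axis, each group scaled to nearly the same total) of 23 genes for chemokines, cytokines, growth factors, arginase 1 and transglutaminase 2; each mark is the mean of 4 libraries and no spread is available. In 19 genes the CM-IL-1 mean lies to the right of RPMI, for example Il1b at 7.50 in RPMI and 382 in CM-IL-1, and in Bmp2, Il16, Gas6 and Gdf15 to the left.

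Markers of alternative activation, the repair-type state, were higher in the main. Of 24 listed 13 were kept, 9 were higher and none lower, and the median was 1.27. Arg1, whose enzyme turns arginine into ornithine and urea, had authors' means of 6.45 with RPMI, 92.1 with CM-Veh and 333 with CM-IL-1, 51.7-fold higher with CM-IL-1. It lies on chromosome 10 (24915221 to 24927484, minus strand, GRCm38). Tgm2, which cross-links proteins, stood at 97.1, 824 and 2005, 20.7-fold higher, and was the most abundant of the 9 with CM-IL-1. Mrc1, the mannose receptor CD206, had 170.0, 214 and 355, and lay near the limit at 2.09-fold. Egr2, a factor of alternatively activated macrophages, had 9.59, 10.9 and 23.1, and Clec7a, the beta-glucan receptor dectin-1, 524, 688 and 1237. Il4ra, Socs3 and Vegfa belong to the list as well.

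Among 20 markers of classical activation, the inflammatory state, 10 were kept, 3 were higher and none lower, with a median of 0.64. The 3 were Il1b, Sphk1 and Hif1a. Sphk1, which makes sphingosine-1-phosphate, had means of 1.01 with RPMI, 6.86 with CM-Veh and 14.8 with CM-IL-1, so its RPMI value was near 1. Hif1a, the hypoxia-inducible factor subunit, stood at 58.9, 93.1 and 140.3. Tlr4, the receptor for lipopolysaccharide, had 20.3, 24.3 and 35.9, within 2-fold at 1.77-fold higher, and the co-stimulatory gene Cd86 had 15.9, 22.9 and 27.9. Of 32 interferon-stimulated genes 19 were kept and 2 were higher, Isg15 at 11.7, 14.9 and 26.5 and Zbp1 at 8.30, 10.1 and 17.5. Both were inside the limit with a pseudocount of 5. None of the 19 was lower, the median was 0.13, and 15 had a higher mean with CM-IL-1 than with RPMI. Ifit3 and Rsad2, among the 4 with a lower mean, had 16.4, 11.6 and 9.16 and 53.1, 38.1 and 31.7.

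NF-κB genes gave a mixed account. Of 40 listed subunits, inhibitors and targets 35 were kept, 8 were higher and 3 lower, with a median of 0.12. Besides Il1b, Cxcl2 and Ccl2, the higher genes included Plaur, the urokinase receptor, at 30.8 with RPMI, 124 with CM-Veh and 235 with CM-IL-1, and Sdc4, the heparan sulfate proteoglycan syndecan 4, at 76.5, 158 and 429. Bcl2a1d, a survival gene, stood at 14.05, 26.5 and 49.4, but it has near-identical copies that could share its reads. The lower genes were Irf1, an interferon-responsive factor, at 32.7, 14.4 and 10.9, Birc3, an inhibitor of apoptosis, at 11.2, 6.25 and 4.45, and the NF-κB subunit gene Relb at 19.9, 10.6 and 7.93. Birc3 and Relb were inside the limit with a pseudocount of 5. Of 19 Toll-like receptor and co-receptor genes 15 were kept, 1 was higher (Cd14) and 2 were lower, with a median of -0.38. These 2 were Tlr7, a sensor of single-stranded RNA, at 43.1, 29.9 and 19.9, and Cd180, a TLR4 homolog, at 75.6, 66.4 and 37.2; Cd180 was inside the limit when centred, and both were with a pseudocount of 5. Of 25 inflammasome and cell death genes 19 were kept, 2 were higher and 1 lower, against 4.35% and 4.80% of all genes. Nlrp3, the sensor that leads to cleavage of pro-IL-1β, had means of 10.4, 27.1 and 48.6, and the survival gene Bcl2l1 had 52.6, 118 and 124. Bcl2l11, which encodes the death-promoting protein BIM, was the lower one at 69.6, 52.9 and 33.7; it was inside the limit when centred.

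Immediate early and feedback genes of growth factor signalling had more higher than lower calls. Of 27 AP-1 and EGR factors 15 were kept, 6 were higher and 1 lower, with a median of 0.81. Fosl2 had 37.2 with RPMI, 146 with CM-Veh and 219 with CM-IL-1, Junb had 56.6, 95.4 and 129 and Maff had 2.85, 11.2 and 15.1; all are partners in leucine zipper dimers. Atf3, a stress-induced repressor of the same family, went the other way, at 147, 91.99 and 49.1, 2.98-fold lower. Of 26 feedback genes of the ERK pathway 15 were kept, 6 were higher and 3 lower, with a median of 0.88. Dusp5 and Dusp6, phosphatases of ERK, had means of 16.03, 78.4 and 132 and of 21.2, 54.8 and 56.97. Errfi1, an inhibitor of the EGF receptor, stood at 2.26, 8.69 and 19.2, and Phlda1 at 15.5, 54.6 and 87.2. Rgs2, a brake on G protein signalling, was lower at 399, 228 and 109.5, 3.64-fold. The other lower members were Rgs1, at 74.9, 70.8 and 37.3, and Trib3, at 28.0, 10.1 and 11.9; Rgs1 was inside the limit when centred.

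The TGF-β, activin and BMP list held 30 genes, of which 18 were kept, 5 were higher and none lower, with a median of 0.29. Bmp2, lower with CM-IL-1, was counted only among the growth factors, whereas Inhba was counted in both lists. After Inhba, the greatest ratio was that of Pmepa1, a TGF-β-induced gene that dampens SMAD signalling, with means of 8.86 with RPMI, 162 with CM-Veh and 283 with CM-IL-1 and a 31.9-fold higher mean. Tgfbi, a matrix protein induced by TGF-β, stood at 26.2, 168 and 252. Id2, a helix-loop-helix inhibitor of differentiation, was abundant, at 205, 1015 and 1303, and Id1 had 0.836, 7.29 and 11.98. Proteases and their inhibitors gave 7 higher and no lower genes of 22 kept (32 listed, median 0.47). Timp1 and Timp3, inhibitors of metalloproteinases, stood at 4.50, 18.9 and 34.3 and at 3.78, 8.22 and 15.2. Mmp19 had 5.60, 21.6 and 37.05, and the coagulation factor gene F10 had 11.6, 16.3 and 26.3.

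Genes of glucose use and the hypoxia response had higher means as a group. Of 39 listed 31 were kept, 12 were higher and none lower, with a median of 0.80. Slc2a1, the glucose transporter GLUT1, had means of 27.9 with RPMI, 105 with CM-Veh and 177 with CM-IL-1, 6.34-fold higher. Hk2, the hexokinase that traps glucose in the cell, had 38.04, 145 and 242, 6.35-fold higher. Egln3, a prolyl hydroxylase that marks hypoxia-inducible factors for decay, stood at 1.51, 8.47 and 12.4. Ddit4, an inhibitor of mTORC1, had 5.30, 22.6 and 37.7, and Mxi1, a MYC antagonist induced by hypoxia, 30.7, 101 and 182. Hilpda, a lipid droplet protein induced by hypoxia, stood in the lipid list and had 79.1, 440.3 and 738, 9.33-fold higher. By contrast, none of the 30 oxidative phosphorylation genes kept passed 2-fold (31 listed, median -0.09, range -0.67 to 0.18).

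The promoter of Slc2a1 is shown as an example of this group, with the hypoxia response core ACGTG, searched on both strands, in capitals. The RefSeq window is chr4:119108495-119108794 on the plus strand of GRCm38.p6.
Slc2a1: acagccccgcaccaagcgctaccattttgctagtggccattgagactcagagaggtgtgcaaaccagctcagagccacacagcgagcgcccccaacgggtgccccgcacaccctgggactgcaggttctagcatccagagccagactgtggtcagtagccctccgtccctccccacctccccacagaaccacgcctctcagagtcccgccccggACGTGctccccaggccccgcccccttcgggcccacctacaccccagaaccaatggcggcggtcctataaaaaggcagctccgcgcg
The match began 36 bases before the start of transcription. Of all 32851 promoter windows 19.6% held ACGTG. It was present for 31.2% of the 5626 kept genes with a window, for 35.5% of the 242 higher and for 29.0% of the 276 lower ones. Of the 28 glycolysis and hypoxia genes with a window 20 held it, whether or not they passed 2-fold. The list was drawn up from known hypoxia targets, so that share describes the list and not these data.

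Stress-arrest genes had the lowest median of the 49 lists with 6 or more kept genes. Of 31 targets of FOXO factors or of growth factor withdrawal 24 were kept, 8 were lower and 2 higher, with a median of -0.86. Bbc3, the death-promoting protein PUMA, had means of 23.8 with RPMI, 3.57 with CM-Veh and 2.27 with CM-IL-1, 10.5-fold lower. Sesn1, a sestrin that restrains mTORC1, stood at 39.6, 14.3 and 4.19, 9.46-fold lower. Klf2, a factor that keeps cells quiet, had 12.3, 4.52 and 2.50, and Tsc22d3, the glucocorticoid-induced leucine zipper, 43.9, 20.9 and 16.6. Ddit4 and the cell cycle inhibitor gene Cdkn1a were the higher members, the latter at 392, 459 and 934. Bbc3 and Sesn1 are also p53 targets. Of 20 p53 targets 16 were kept, 5 were lower and 2 higher, with a median of -0.35. Trp53inp1 of that list had 13.8, 2.52 and 1.94, and the higher ones were Cdkn1a and Plk3, a polo-like kinase, at 3.97, 21.2 and 21.8. The FOXO letters GTAAACA, searched on both strands, were in 3.65% of all promoter windows. By gene they were present for 3.06% of the kept genes with a window, 5.37% of the higher and 6.52% of the lower ones. Of the 22 FOXO list genes with a window 5 held them, and since that list was drawn up from known targets, the share describes the list.

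Cell cycle genes were lower where they passed the limit at all. Of 40 listed 23 were kept, 6 were lower and none higher, with a median of -0.67. They were 5 of the 6 MCM subunits of the replicative helicase and Rrm2, the subunit of the enzyme that makes deoxynucleotides. The 6 MCM genes had log2 ratios from -1.63 to -0.83. Mcm2 had means of 19.7 with RPMI, 11.1 with CM-Veh and 6.36 with CM-IL-1, Mcm6 of 46.4, 32.6 and 17.6 and Mcm3 of 56.1, 37.4 and 22.96. Mcm4 and Mcm5 stood at 16.96, 9.88 and 6.98 and at 29.6, 23.2 and 14.1, and Mcm5 was inside the limit when centred. Rrm2 had 10.2, 5.84 and 2.79. With a pseudocount of 5, Mcm4, Mcm5 and Rrm2 were inside the limit. The MYC network was divided, with 3 higher and 4 lower of 20 kept (24 listed, median 0.32). Odc1, a MYC target and the first enzyme of polyamine synthesis, had 159.9, 281 and 409. Mxd4 and Mnt, both MYC antagonists, had lower means, of 55.96, 15.9 and 9.49 and of 28.7, 14.5 and 10.1. The antagonist Mxi1 went the other way and had the highest ratio of this list, at 30.7, 101 and 182.

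**Figure D4:**
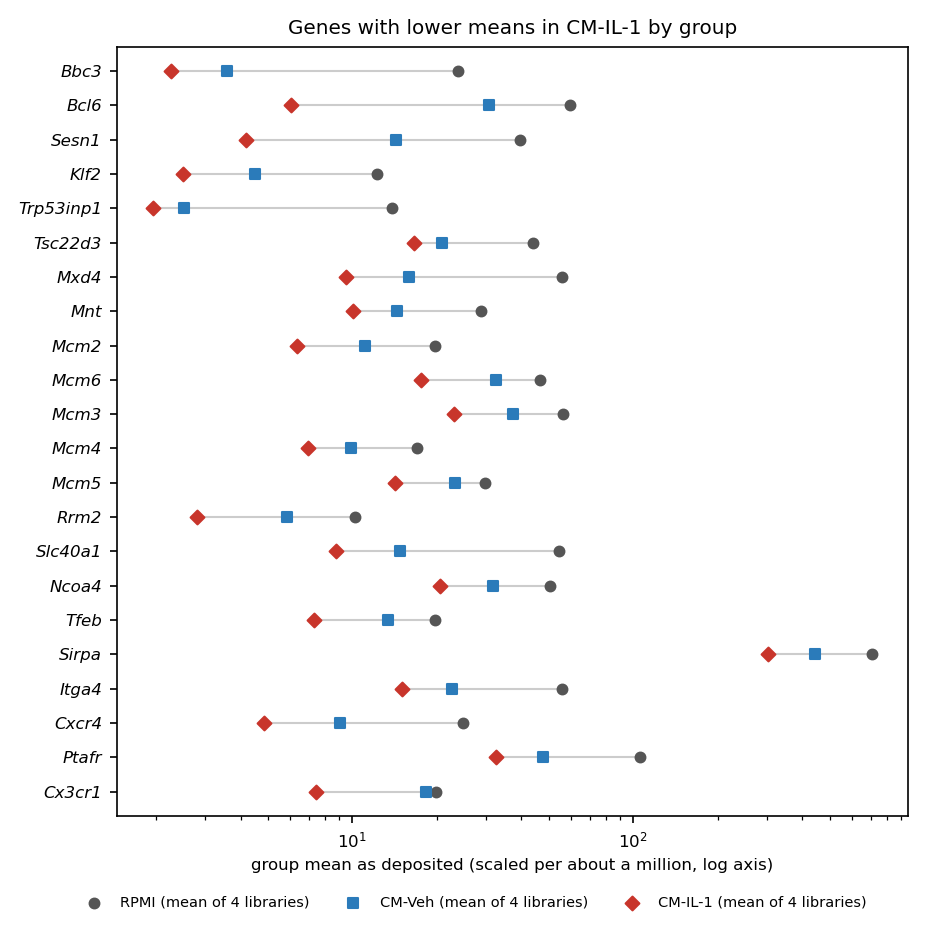
Authors' group means (horizontal log axis, each group scaled to nearly the same total) of 22 genes that were at least 2-fold lower with CM-IL-1; each mark is the mean of 4 libraries and no spread is available. The CM-IL-1 mean is the leftmost in each row, as for Sesn1 at 4.19 against 39.6 in RPMI.

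Surface receptors for chemoattractants went both ways. Of 18 listed 10 were kept, 2 were higher and 3 lower, with a median of 0.45. Ccr1, a receptor for CCL3 among others, had means of 12.8 with RPMI, 69.3 with CM-Veh and 97.3 with CM-IL-1. Cxcr4, the CXCL12 receptor, was lower at 24.8, 9.01 and 4.83, and Ptafr, the receptor for platelet-activating factor, at 106, 47.6 and 32.4. Cx3cr1, the fractalkine receptor, had 19.9, 18.4 and 7.44, and its CM-Veh mean was close to that of RPMI. In the adhesion and cytoskeleton list 3 genes were higher and 3 lower of 32 kept (40 listed). Itga4, the alpha chain of VLA-4, had 55.7, 22.7 and 15.01, and Itga1, a collagen-binding integrin chain, 2.45, 6.59 and 13.8.

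Of 33 uptake receptors listed 28 were kept, 4 were higher and 1 lower, with a median of 0.20. All genes kept gave 4.35% higher, and centred ratios gave 7 higher uptake receptors. Olr1, the scavenger receptor LOX-1, had means of 1.27 with RPMI, 7.73 with CM-Veh and 11.5 with CM-IL-1, and Msr1, the scavenger receptor A, lay just inside the limit at 255, 481 and 498. Sirpa, the receptor that reads the CD47 signal on healthy cells, was the lower member, at 709.7, 443 and 301, and had the greatest difference of means in that direction among genes past 2-fold. Mertk, the receptor for apoptotic cells and for Gas6, had 143, 84.3 and 74.3, 1.93-fold lower and within the limit. None of the 27 kept genes of the phagocytic machinery passed 2-fold (median -0.09). Of 35 kept lysosomal genes 1 did (median -0.21): Tfeb, the master regulator of lysosome genes, at 19.6, 13.4 and 7.32.

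Iron and purine genes included single members with large ratios. Slc40a1, ferroportin, the iron exporter, had means of 54.2 with RPMI, 14.8 with CM-Veh and 8.72 with CM-IL-1, 6.22-fold lower, and Ncoa4, the receptor that delivers ferritin to lysosomes, had 50.8, 31.7 and 20.5. They were the 2 lower genes of 18 kept in the iron list (21 listed, median -0.32), and none was higher. Adora2b, an adenosine receptor, had 4.14, 30.3 and 40.1, and Nt5e, the ectoenzyme CD73 that makes adenosine, 0.879, 7.11 and 12.7. P2rx7, the ATP-gated channel upstream of the inflammasome, was lower at 30.2, 16.8 and 8.39, 3.60-fold. In the purine and prostaglandin list 3 of 15 kept genes were higher and 1 lower (31 listed). Of 7 kept metallothionein and zinc genes 2 were higher and 1 lower. The higher ones were Mt1, a metallothionein that binds zinc, at 748, 1075 and 1905, and Slc39a14, a zinc and iron importer, at 2.95, 13.3 and 14.5. In the NRF2 and glutathione list 1 of 27 kept genes was higher and 1 lower, near the shares over all genes (4.35% and 4.80%). The higher one was Slc7a11, the cystine importer, at 11.05, 48.5 and 54.3.

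Further lists were at or near the background. The MHC presentation list had 1 higher gene of 17 kept, Cd274, which encodes the checkpoint ligand PD-L1, at 18.4 with RPMI, 27.4 with CM-Veh and 72.0 with CM-IL-1. No member passed 2-fold among 9 kept acute phase and complement genes or among 14 kept heat shock genes. The unfolded protein response gave 1 higher and 2 lower of 23 kept, Pdia4, a disulfide isomerase gene, at 40.4, 69.4 and 88.98 against Herpud1 and Dnajb9, both of ER quality control, at 33.4, 14.4 and 10.1 and 10.8, 6.13 and 4.66.

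**Figure D5:**
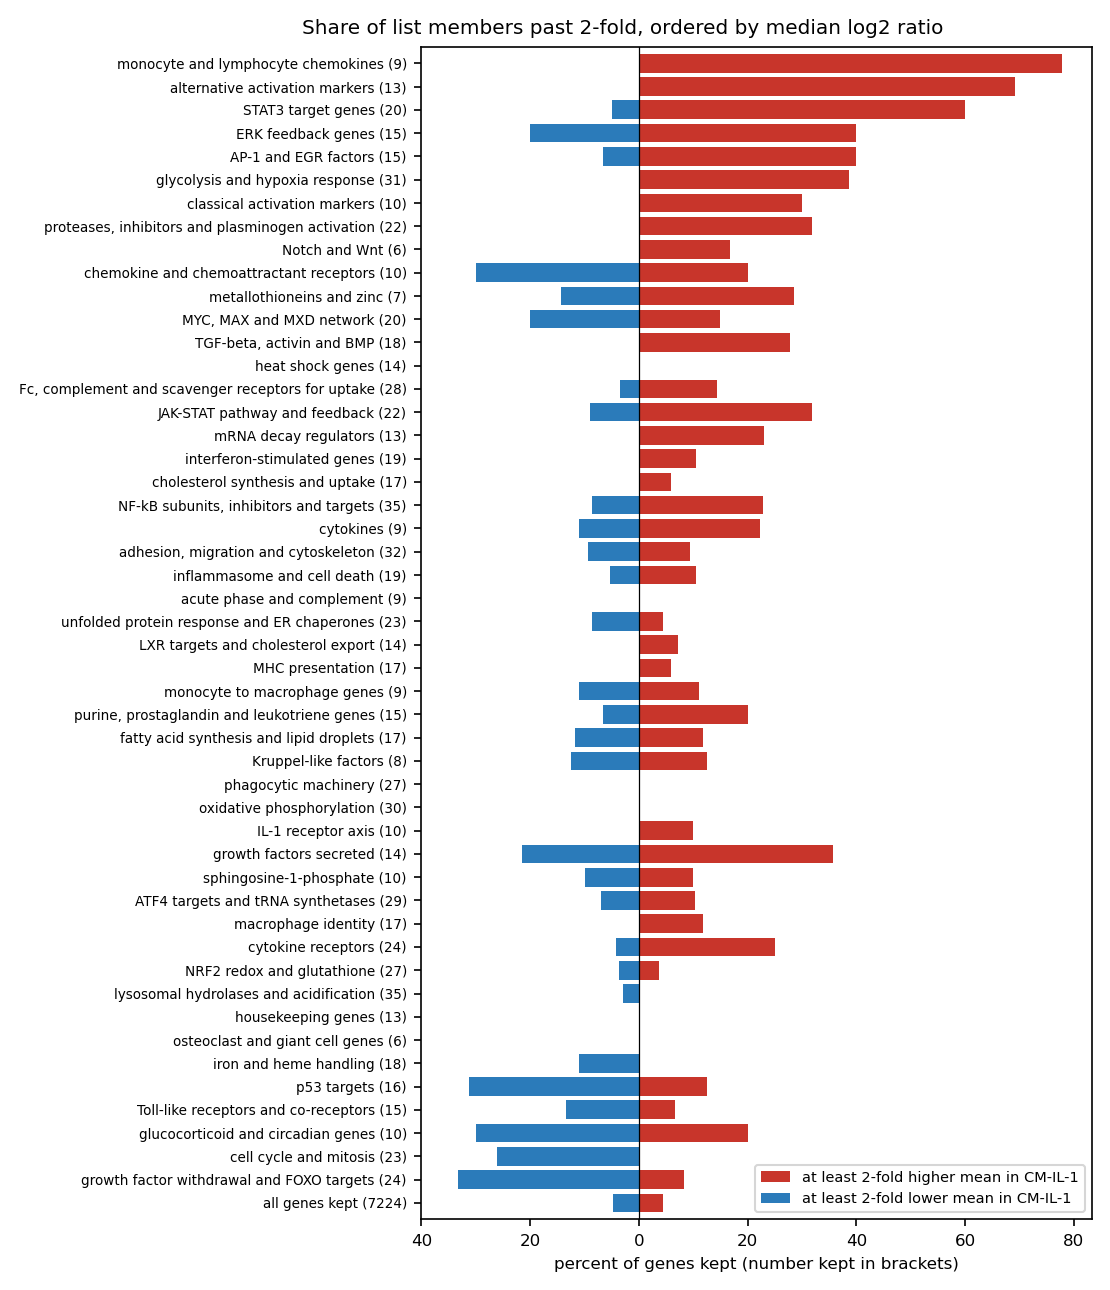
Share of the kept genes of each list that were at least 2-fold higher (right) or lower (left) with CM-IL-1, for the 49 lists with 6 or more kept genes and for all genes (bottom row, 4.35% and 4.80%); the number kept is in brackets and rows are ordered by median log2 ratio. Chemokine, alternative activation and STAT3 target lists stand at the top, and FOXO, cell cycle and circadian lists at the bottom.

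Outside the lists, the highest log2 ratio of the same 2643 genes was that of Ctla2a (6.36), an inhibitor of cysteine proteases, with means of 1.76 with RPMI, 45.8 with CM-Veh and 144 with CM-IL-1. Ctla2a has a close copy, Ctla2b, so its reads may be shared. Crem, a cAMP-responsive factor, stood at 9.07, 70.7 and 107, and Vdr, the vitamin D receptor, at 3.23, 21.2 and 50.1. Pdpn, podoplanin, a ligand of platelet CLEC-2, had 19.2, 133 and 210.2, and Ppp1r3b, which directs a phosphatase to glycogen, 6.59, 26.5 and 62.2. Among the genes with the lowest ratios were Fgd4, an activator of CDC42, at 68.1, 23.97 and 8.47, and Rasgef1b, a RAP exchange factor, at 72.01, 28.2 and 10.2. Pou2f2, the transcription factor OCT2, had 154, 76.6 and 22.4, and Mef2c, another transcription factor gene, 251, 156 and 88.7. Rassf4, of a family of RAS-binding proteins, had 328, 112 and 57.1, 5.75-fold lower. The 7SK RNA gene Rn7sk, whose product holds the elongation factor P-TEFb inactive, stood at 169.7, 28.5 and 26.1, with CM-Veh near CM-IL-1. Histone genes H1f2, H2bc4 and H2aw also belonged to the 20 lowest, with H1f2 at 321, 119 and 80.5. Histone genes have close copies, so reads may be shared among them. The study primed its libraries with oligo-dT, which pairs with poly(A) tails. Counts of 7SK and histone RNAs may therefore not follow their levels, which was not tested.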

How the data were processed

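Single-end 3′ libraries of 12 BMDM samples were made by the study. Per the submitters' processing notes, Partek, cutadapt, STAR and mm10 were used; no source used here gives their versions. The deposited table holds the authors' least-squares means per group as a normalized signal that sums to nearly the same total in every group. It also holds the authors' p-values, adjusted p-values, ratios and folds (12 columns), which were not used. It has 0 columns of values per library. Columns were matched to groups by their names. Ratios of CM-IL-1 over RPMI were computed for genes with a mean of at least 10 in either group, and a call was a ratio past 2-fold, with no test run, since group means alone were used. The members and the 57 gene lists were chosen with earlier results of these data known. Named genes were the 20 with the largest ratio each way (mean of at least 50), the 10 with the largest difference each way, up to 6 per list plus members against the list's direction, genes the study discusses and control genes. No fold was printed against a mean under 1. Gene coordinates came from GENCODE (GRCm38, which mm10 also names) and promoters from RefSeq. The steps were run on simulated data with known folds and no noise, which checks the arithmetic and not the spread between libraries. Python 3.11.15, numpy 2.4.6, pandas 2.3.3 and matplotlib 3.10.9 were used. 7 symbols that a spreadsheet had turned into dates were left unnamed. Precision per value cannot be given because read depth is unknown. Alternatives were the fold limit, the minimum mean, pseudocounts of 1 and 5, centring, and rescaling without the 20 most abundant genes. Some members of the lists are not reported here.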

Additional observations from a re-analysis of the deposited data

How the results depend on the processing

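The count of higher genes was 644 at 1.5-fold, 153 at 3-fold and 170 with a mean of at least 50, against 314. The count of lower genes was 1103 at 1.5-fold, 88 at 3-fold, 943 with a mean of at least 1, 73 with a mean of at least 50 and 150 with a pseudocount of 5, against 347. The median log2 ratio was -0.0132 for genes with a mean of at least 50, against -0.116. List members past the limit numbered 300 at 1.5-fold, against 167. The causes of these shifts were not tested beyond the limits themselves. A ratio between 1.8 and 2.2 either way was found in 409 genes, so many calls lie near the limit. Of 314 named genes above the minimum, no call turned from higher to lower or the reverse. Some small log2 ratios changed sign on centring, among them B2m (-0.083 to 0.034) and Col1a1 (-0.0025 to 0.11). With a pseudocount of 5, 25 calls were lost, among them Pias3, Tfeb, Egr2, F10, Il13ra1, Trib3 and Dnajb9. A pseudocount of 1 lost 4 calls and centring lost 10, whereas centring gained 6 and rescaling gained 1. No paired analysis was possible because the table gives 1 mean per group and its columns carry no replicate numbers. For the same reason no replicate could be left out.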

Other observations

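In 9 of the 7224 genes the CM-Veh mean was at least 1.5 times both the RPMI and the CM-IL-1 mean, and in 1 gene, Sesn2, it was below both by that factor. The genes named here were chosen after their values were seen. Sesn2, a sestrin gene, had means of 24.3 with RPMI, 12.8 with CM-Veh and 20.1 with CM-IL-1. Hmox1, which encodes heme oxygenase 1, had means of 144 with RPMI, 275 with CM-Veh and 155 with CM-IL-1. Plau, the urokinase gene, had 23.2, 38.5 and 22.5 in that order. Gm10800, a predicted gene, had 184, 398 and 188, and 3 predicted genes with similar numbers (Gm10719, Gm10721 and Gm10801) were also among the 9; reads may be shared among such genes.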
